A study of Mus musculus with 8 samples.

Results

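Plasminogen is a circulating zymogen that is cleaved into plasmin, a broad serine protease, by either of a pair of activators. Urokinase, encoded by Plau, works mostly at the cell surface, where the receptor encoded by Plaur holds it. The tissue activator, encoded by Plat, works best on fibrin. Serpine2 encodes protease nexin-1, a serpin made by fibroblasts that traps thrombin, urokinase, the tissue activator and plasmin. In injured muscle this system is known for clearing fibrin and for opening the matrix to migrating cells.

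The 4 genes Plau, Plat, Plaur and Serpine2 were chosen by symbol, and each matched 1 of the 20781 gene IDs in the count table. They were followed in cultured fibro-adipogenic progenitors (FAPs), mesenchymal cells of skeletal muscle that can turn into fat cells or matrix-producing fibroblasts. The cells came from tibialis anterior, gastrocnemius and quadriceps of wild-type male C57BL/6 mice (C57BL/6J in the design text) without injury. After 48 h in culture they received vehicle (4 libraries) or melatonin (4 libraries) for 24 h. Melatonin is a pineal hormone that binds membrane receptors. Its concentration, the composition of the vehicle, the age of the mice and any pooling of animals are not stated in these labels. One protocol names longissimus dorsi as the RNA source, which differs from the other labels. Replicates are called biological in the labels, and p-values measure the spread between these libraries.

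Library totals ran from 35584931 to 52401153 counts. Levels are in CPM, counts divided by the TMM-scaled library total and set to a common depth, and changes are log2 fold changes of melatonin over vehicle ± standard error. A gene passed at an adjusted p under 0.05 in edgeR's quasi-likelihood test, adjusted over 16565 tested genes. Of all tested genes 18.5% fell with melatonin and 18.1% rose. Of the 12 FAP markers, all in the table, 8 fell with melatonin, 1 rose and 3 did not pass. Their summed level was 27030 to 32040 CPM with vehicle and 14070 to 16620 CPM with melatonin, and most of it came from Col1a1 and Col3a1. Without Col1a1 and Col3a1 the other 10 summed to 3340 to 3420 CPM with vehicle and 3136 to 3670 CPM with melatonin, with overlap. Melatonin replicate 4 stood apart from its group, with a chi-square per gene of 64.1 to 81.1 against the other 3, which gave 25.4 to 34.9 among themselves. In bulk libraries fewer cells of a type and less RNA per cell cannot be told apart.

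With melatonin, the urokinase receptor transcript fell about 4-fold, the protease nexin-1 and tissue activator transcripts fell by 22.8% and 15.5%, and the urokinase transcript did not pass. Of the 4 genes 3 fell, in a comparison in which 18.5% of all tested genes fell, 18.1% rose and 36.5% passed in either direction. The groups did not overlap for Plaur, Plat and Serpine2, as for 37.7% of all tested genes. The small decrease of Plat depended on scaling. With library totals alone, which moved the median of all genes from 0.01 to 0.17, Plat was at -0.09 ± 0.05 (edgeR adjusted p = 0.20) and Plau at 0.01 ± 0.09 (edgeR adjusted p = 0.96). Plaur and Serpine2 passed under every scaling, filter, tool and left-out library that was run.

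**Figure D1:**
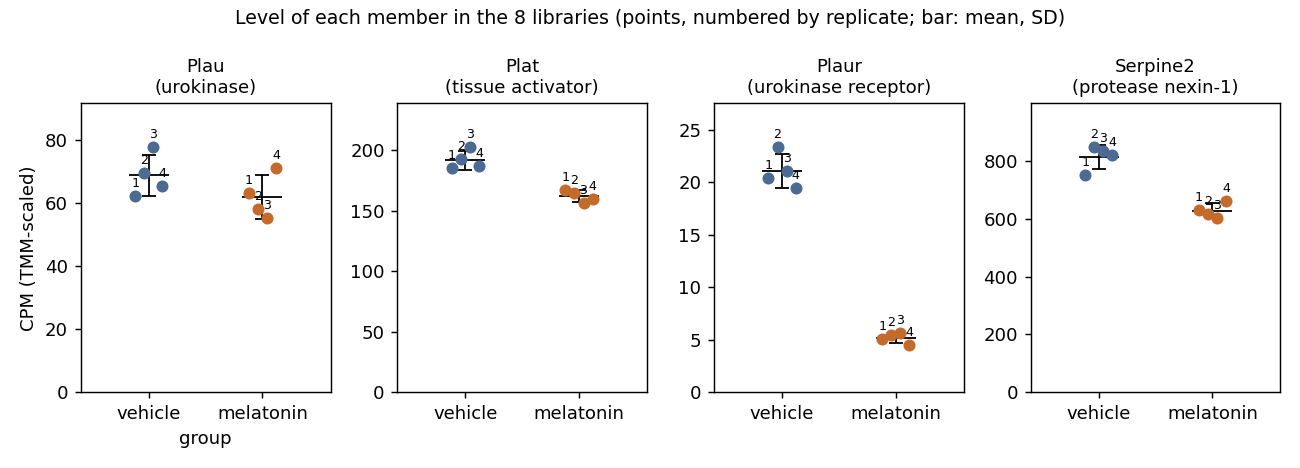
Level of Plau, Plat, Plaur and Serpine2 in CPM on a linear axis from 0, for 4 vehicle and 4 melatonin libraries, with each point a library numbered by replicate and bars giving mean and SD. The Plaur points lie between 19.4 and 23.3 CPM with vehicle and between 4.5 and 5.65 CPM with melatonin, while the Plau points of the groups overlap.

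Plaur encodes the urokinase receptor, a lipid-anchored surface protein with no tail inside the cell (ENSMUSG00000046223, chromosome 7, 24462484 to 24475968 plus strand, GRCm38). It was counted 1015, 1007, 960 and 970 times in vehicle replicates 1 to 4. In melatonin replicates 1 to 4 the counts were 260, 229, 303 and 168. The level was 20.4, 23.3, 21.03 and 19.4 CPM with vehicle and 5.03, 5.41, 5.65 and 4.5 CPM with melatonin, so the lowest vehicle library lay more than 3 times above the highest melatonin library. The means were 21.1 ± 1.64 and 5.15 ± 0.5 CPM (SD, n = 4). The log2 fold change of Plaur was -2.03 ± 0.10, a 4.08-fold decrease (edgeR adjusted p = 9.6e-07), with a 95% interval of -2.26 to -1.80. By p it stood at position 58 among all tested genes, and by size at position 363 among the 3062 that fell. Without melatonin replicate 4, the library with the lowest Plaur level, the value was -1.96.

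Urokinase itself moved little. Plau (ENSMUSG00000021822, chromosome 14, 20836660 to 20843385 plus strand) had 62.4, 69.7, 77.7 and 65.5 CPM in vehicle replicates 1 to 4. With melatonin it had 63.1, 58.0, 55.4 and 71.1 CPM. Melatonin replicates 1 and 4 lay within the vehicle range and replicates 2 and 3 below it. The means were 68.8 ± 6.63 and 61.9 ± 6.90 CPM (SD, n = 4), with a log2 fold change of -0.15 ± 0.10 (edgeR adjusted p = 0.25). The 95% interval ran from -0.37 to 0.06. A decrease of the size seen for Plaur lies outside it, and a decrease of the size seen for Plat lies inside it. Leaving out melatonin replicate 4 gave -0.22 (edgeR adjusted p = 0.060), and the adjusted p ran from 0.060 to 0.53 over the 8 libraries left out in turn.

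The tissue activator transcript was the more abundant of the pair of activators by counts. Plat (ENSMUSG00000031538, chromosome 8, 22757727 to 22782844 plus strand) had 185.6, 193, 203 and 187 CPM with vehicle. With melatonin it had 168, 165, 156 and 160 CPM, and each melatonin library lay below each vehicle library. The means were 191.9 ± 7.70 and 162 ± 5.04 CPM (SD, n = 4). Plat fell by 0.24 ± 0.06 on the log2 scale, 15.5% lower (edgeR adjusted p = 0.0078, 95% interval -0.37 to -0.12).

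Serpine2 (ENSMUSG00000026249, chromosome 1, 79794197 to 79861180 minus strand) was among the most abundant transcripts of these cells, at position 157 of all tested genes by vehicle CPM. Its levels were 752, 846, 833 and 820 CPM in vehicle replicates 1 to 4. In melatonin replicates 1 to 4 they were 630, 617, 602 and 661 CPM, all below the lowest vehicle library. The means were 813 ± 41.7 and 628 ± 25.1 CPM (SD, n = 4). Serpine2 fell by 0.37 ± 0.06 on the log2 scale, 22.8% lower (edgeR adjusted p = 0.0012, 95% interval -0.51 to -0.23). With library totals alone the value was -0.22 ± 0.06 (edgeR adjusted p = 0.010). No gene of the GENCODE M21 annotation overlaps any of the 4 genes.

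**Figure D2:**
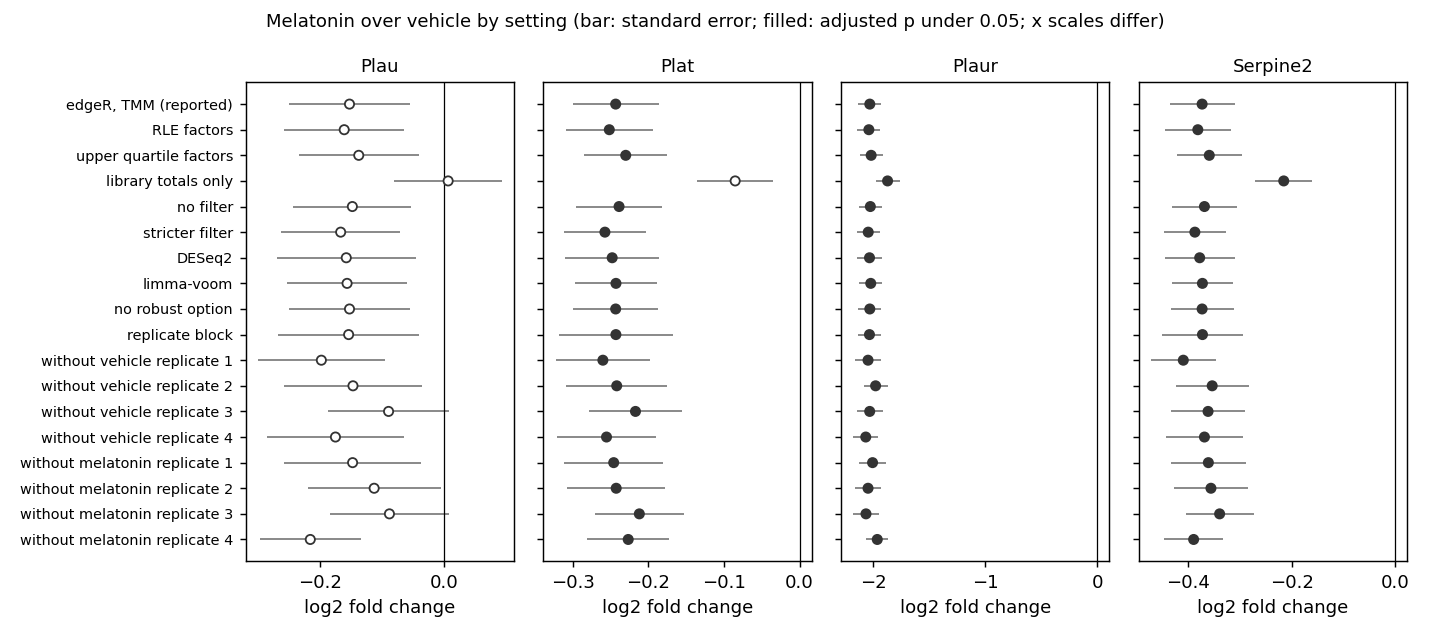
Log2 fold change of melatonin over vehicle (x axis, a different range in each panel) for each gene under each setting (y axis), with bars for the standard error and filled points for an adjusted p under 0.05. Plaur and Serpine2 are filled in every setting, Plat in every setting except library totals only (-0.09), and Plau in none.

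Levels of different genes were compared per kb of exon. With vehicle Serpine2 stood at 98.1 ± 5.03 CPM per kb, Plat at 30.8 ± 1.23, Plau at 29.1 ± 2.80 and Plaur at 8.04 ± 0.626 (SD, n = 4). Plat and Plau were neighbours in this order that did not differ beyond their spread. With melatonin the levels were 75.7 ± 3.02 for Serpine2, 26.1 ± 2.92 for Plau, 25.99 ± 0.808 for Plat and 1.97 ± 0.191 CPM per kb for Plaur. The serpin transcript was thus the most abundant of the 4 and the receptor transcript the least abundant in both groups. The place of Plat depends on the length used. Per kb of the longest coding transcript, the vehicle level was 76.0 CPM per kb for Plat against 29.4 for Plau, with Serpine2 at 368 and Plaur at 14.0.

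The balance between genes was followed as the ratio of their counts within a library, which no scaling factor can change. Reads of Plau per read of Plaur numbered 3.06, 2.99, 3.69 and 3.37 in vehicle replicates 1 to 4. With melatonin they numbered 12.5, 10.7, 9.8 and 15.8, and the highest of these was in replicate 4. Activator transcript per receptor transcript was therefore 3.68 times as high with melatonin. The difference in mean log2 ratio was 1.88, with an exact two-sided permutation p = 0.0286, the smallest that 4 against 4 libraries allow. Plaur also fell against Plat (by 1.79 on the log2 scale) and against Serpine2 (by 1.66), again without overlap of the groups and with the same exact permutation p. Adjusted over the 6 pairs these exact permutation p-values were 0.0571, so none of the 6 differences passed 0.05. With only these 3 pairs at the smallest possible p, the adjustment can give no lower value, so it cannot decide about them. Without vehicle replicate 3, or without melatonin replicate 4, the adjusted exact permutation p of the 3 ratios with Plaur was 0.0429. That change arose because a pair without Plaur also reached the smallest possible p, and says nothing more about the Plaur ratios.

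Among the other 3 genes the ratios shifted by at most 1.16-fold. Plau against Serpine2 was higher by 0.22 on the log2 scale with melatonin (exact permutation p = 0.0571, adjusted p = 0.0857). Plat against Serpine2 was higher by 0.13 (exact permutation p = 0.0857, adjusted p = 0.1029), and Plau against Plat by 0.09 (exact permutation p = 0.4286, adjusted p = 0.4286). In each of these pairs the groups overlapped. Plat was counted 0.247, 0.228, 0.243 and 0.228 times per read of Serpine2 with vehicle and 0.266, 0.267, 0.26 and 0.242 times with melatonin, where replicate 4 lay within the vehicle range.

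**Figure D3:**
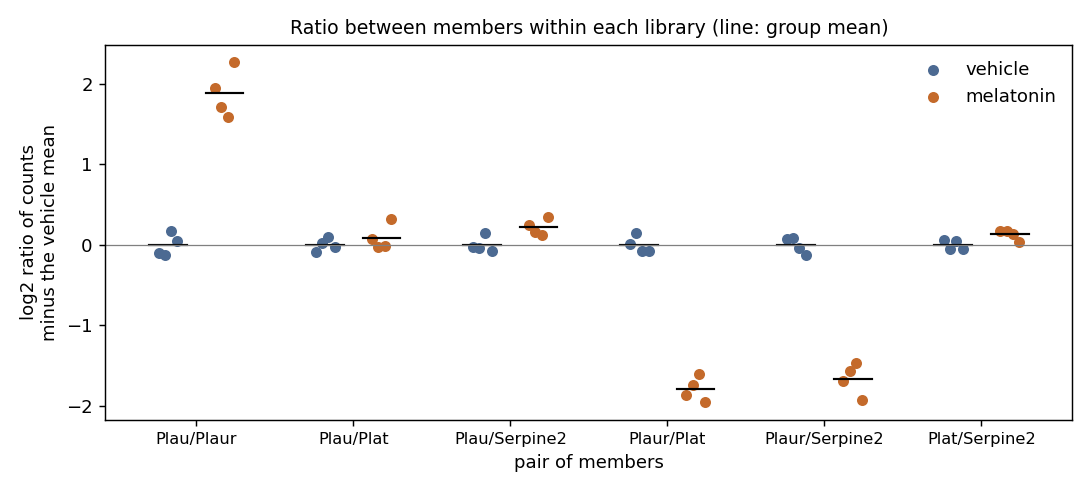
Log2 ratio of counts for each of the 6 pairs, drawn as the difference from the vehicle mean (y axis), with a point for each vehicle and melatonin library and a line at each group mean. The 3 pairs with Plaur separate the groups, by 1.88, -1.79 and -1.66, and in the other 3 pairs the groups overlap.

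Promoter windows of 2 of the 4 genes, Plaur and Serpine2, were found in the RefSeq-derived table for GRCm38.p6, and those of Plau and Plat were not used here. The sequences are shown because these were the 2 windows available, and the choice did not rest on how the genes changed. Each was searched on both strands for 5 motifs in the 250 bases before the start given in that source. They were the TATA box with the letters TATAAA, the AP-1 element with the letters TGANTCA, the GC box with the letters GGGCGG, the ETS core with the letters GGAAGT, and the NF-kB element with the letters GGGNNTTCC. The Plaur window (chr7:24462233-24462482, plus strand) held 3 GC boxes, of which neighbours touch or share a base, and an AP-1 match at bases -69 to -63. The Serpine2 window held 6 GC boxes, 4 of them in the stretch printed here (chr1:79858697-79858915, minus strand), which leaves off the 31 bases that GENCODE places in an exon. The Serpine2 window lies inside the gene as GENCODE places it (79794197 to 79861180, minus strand). It thus precedes a start within the gene, and the bases before the GENCODE 5′ end at 79861180 were not searched. Both sequences are written 5′ to 3′ with AP-1 and GC box matches in capitals.
Plaur: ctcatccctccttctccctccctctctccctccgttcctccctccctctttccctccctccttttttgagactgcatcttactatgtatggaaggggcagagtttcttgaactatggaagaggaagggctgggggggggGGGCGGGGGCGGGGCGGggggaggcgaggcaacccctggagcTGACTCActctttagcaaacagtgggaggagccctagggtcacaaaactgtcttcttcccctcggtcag
Serpine2: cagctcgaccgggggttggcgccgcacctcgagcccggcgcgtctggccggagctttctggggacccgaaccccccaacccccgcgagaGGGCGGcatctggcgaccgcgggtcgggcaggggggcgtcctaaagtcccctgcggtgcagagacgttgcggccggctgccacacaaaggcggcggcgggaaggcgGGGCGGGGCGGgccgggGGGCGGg
Of 32851 such windows over all genes, 6.75% held the AP-1 element, 32.7% the GC box, 12.4% the TATA box, 19.7% the ETS core and 4.98% the NF-kB element. Both windows thus held the common GC box in several copies, and the Plaur window also held the less common AP-1 element. G and C made up 59.6% of the Plaur window and 78.8% of the Serpine2 window. A match of letters is not a bound site, and binding was not measured.

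The other genes of the system were taken from 8 lists by role, and the median log2 fold change of all tested genes was 0.01. The counts of each list stand beside 18.5% of all tested genes that fell, 18.1% that rose and 36.5% that passed in either direction. Among proteases upstream of plasmin, St14, the matriptase gene whose product activates urokinase, fell from 3.62 ± 0.276 to 2.18 ± 0.231 CPM (-0.73 ± 0.13, edgeR adjusted p = 0.0021). Hpn, the hepsin gene, was low at 0.82 ± 0.172 and 0.617 ± 0.0963 CPM and did not pass (edgeR adjusted p = 0.23). No gene ID in the count table matched Plg, which encodes plasminogen, so the data describe the activators and not their substrate.

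Most tested inhibitors of the activators and of plasmin fell. Of 12 listed genes 8 were tested, Serpine2 among them. Of these 5 fell, 1 rose and 2 did not pass, with a median of -0.78. A2m, which encodes a protease trap that takes up plasmin, had 4.85, 5.88, 4.01 and 3.95 CPM with vehicle and 0.213, 0.473, 0.317 and 0.429 CPM with melatonin. Its log2 fold change was -3.72 ± 0.26 (edgeR adjusted p = 5.2e-06), with no overlap between the groups. Serpinb2, a serpin that inhibits urokinase, had 15.0, 15.5, 17.2 and 8.08 CPM with vehicle and 2.09, 2.41, 2.05 and 1.29 CPM with melatonin. Its lowest vehicle library, replicate 4, was still above each melatonin library, and it fell by 2.82 ± 0.27 (edgeR adjusted p = 4.0e-05). Spint2, a membrane-bound Kunitz inhibitor of matriptase and hepsin, fell by 2.14 ± 0.22 (2.92 ± 0.742 to 0.659 ± 0.0812 CPM). Serpinb8 was the member that rose (0.79 ± 0.18, chosen after its values were seen). Serpini1, the neuroserpin gene whose product inhibits the tissue activator, was at 1.23 ± 0.215 and 1.46 ± 0.345 CPM (edgeR adjusted p = 0.43). Serpinf2, the antiplasmin gene, had 0 to 11 counts a library and was not tested.

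The list of plasminogen receptors and binding proteins, which also holds the thrombomodulin gene, did not move as 1 group. Of 6 tested genes 2 fell, 1 rose and 3 did not pass, with a median of -0.11. Eno1, a glycolytic enzyme that also binds plasminogen at the surface, fell from 2782 ± 139.4 to 1262 ± 119 CPM (-1.14 ± 0.08, edgeR adjusted p = 6.0e-06). Reads of Eno1 may be shared with near-identical copies. Thbd, the thrombomodulin gene, fell from 187 ± 30.4 to 94.2 ± 12.9 CPM. Plgrkt, a membrane receptor for plasminogen, had 13.4, 11.1, 14.2 and 14.3 CPM with vehicle and 16.6, 17.9, 18.2 and 20.8 CPM with melatonin. All melatonin libraries lay above all vehicle libraries for Plgrkt (0.47 ± 0.11, edgeR adjusted p = 0.0072). Anxa2 and S100a10, which form a plasminogen-binding complex, had log2 fold changes of -0.26 ± 0.10 and 0.05 ± 0.14 and did not pass. Without melatonin replicate 4 Anxa2 passed at -0.37 (edgeR adjusted p = 9.7e-04).

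Of 17 tested genes for partners of the urokinase receptor and for receptors that clear it, 7 fell, 2 rose and 8 did not pass, with a median of -0.17. Vldlr, an endocytic receptor for urokinase bound to its inhibitors, fell from 48.1 ± 2.83 to 25.7 ± 1.86 CPM (-0.90 ± 0.08, edgeR adjusted p = 2.0e-05). Srpx2, a secreted ligand of the urokinase receptor, fell from 337 ± 9.73 to 221 ± 14.3 CPM. Itga5, the fibronectin receptor subunit with which the urokinase receptor associates, fell from 297 ± 7.03 to 209 ± 7.81 CPM. The main clearance receptor Lrp1 (3981 ± 429 and 3537 ± 803 CPM) and the collagen receptor Mrc2, which binds the urokinase receptor complex (962 ± 38.3 and 923 ± 93.3 CPM), did not pass. The 2 that rose were Lrpap1, a chaperone of Lrp1 (0.19 ± 0.06, edgeR adjusted p = 0.030), and Itga3 (0.31 ± 0.10, edgeR adjusted p = 0.033), both named after their values were seen. Neither passed with the replicate block (edgeR adjusted p = 0.096 for Lrpap1 and 0.075 for Itga3). Lrpap1 did not pass without vehicle replicate 1, 3 or 4 or melatonin replicate 1 or 2, and Itga3 without any 1 of the vehicle replicates or melatonin replicate 3 (edgeR adjusted p up to 0.083 and 0.081).

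Among genes for proteins that plasmin or its activators cleave, 10 of 14 tested fell and 4 did not pass, with a median of -0.59. Mmp9 (155 ± 10.4 to 22.7 ± 4.15 CPM) and Mmp3 (2812 ± 653 to 61.0 ± 19.4 CPM), proteases made as inactive precursors, had the smallest p. Pdgfc, a growth factor gene whose product the tissue activator releases, fell from 12.3 ± 0.348 to 5.85 ± 0.47 CPM (edgeR adjusted p = 2.1e-05). In the list of thrombin, tissue factor and their receptors and inhibitors, 5 of 12 tested fell and 7 did not pass, with a median of -0.55. Tfpi2, a Kunitz inhibitor of plasmin, fell by 1.51 ± 0.15 on the log2 scale, Procr, the protein C receptor gene, by 1.55 ± 0.15, and Pros1, the protein S gene, by 0.59 ± 0.06. F10 (1.02 ± 0.298 to 0.0298 ± 0.0384 CPM) and F5 (0.627 ± 0.216 to 0.129 ± 0.0934 CPM), both of low abundance and named after their values were seen, were the others that fell. F2r, the main thrombin receptor gene, was at 153 ± 14.9 and 152 ± 7.81 CPM, and F3, the tissue factor gene, at 188 ± 22.7 and 205 ± 24.4 CPM. Neither F2r nor F3 passed.

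Other serpins fell broadly in count. Of 11 tested, 10 fell and 1 did not pass, with a median of -0.91. Serpina3n, an inhibitor of leukocyte proteases, fell from 963 ± 17.7 to 399 ± 62.1 CPM. Serpina3g (103 ± 17.1 to 22.6 ± 4.51 CPM) and the granzyme inhibitor Serpinb9 (42.4 ± 1.36 to 20.1 ± 0.819 CPM) were the others with the smallest p. The Serpina3 and Serpinb genes lie in families of close copies, and their reads may have been split between members.

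AP-1, ETS, NF-kB and EGR factors are known regulators of the urokinase and urokinase receptor genes. Of 19 listed genes of these and the SP and KLF families, 10 fell, 2 rose and 7 did not pass, with a median of -0.34. Fosl1, an AP-1 subunit gene, had 72.1, 69.3, 68.9 and 57.8 CPM with vehicle and 16.3, 19.5, 16.2 and 17.4 CPM with melatonin. The groups of Fosl1 were far apart, with a log2 fold change of -1.95 ± 0.09 (edgeR adjusted p = 7.7e-07). Elk3, an ETS family gene, fell from 114 ± 7.54 to 52.8 ± 3.91 CPM (edgeR adjusted p = 5.2e-06). Egr1, an immediate early zinc finger gene, rose from 43.4 ± 5.35 to 83.3 ± 6.50 CPM (0.94 ± 0.10, edgeR adjusted p = 5.7e-05). Fos was the other that rose (0.38 ± 0.12, edgeR adjusted p = 0.036), and was named after its values were seen. Its groups overlapped, with 5.95 to 7.95 CPM with vehicle and 7.74 to 9.68 CPM with melatonin. Fos did not pass with the replicate block (edgeR adjusted p = 0.088), or without vehicle replicate 1, 2 or 4 or melatonin replicate 1, 2 or 4 (edgeR adjusted p up to 0.096).

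**Figure D4:**
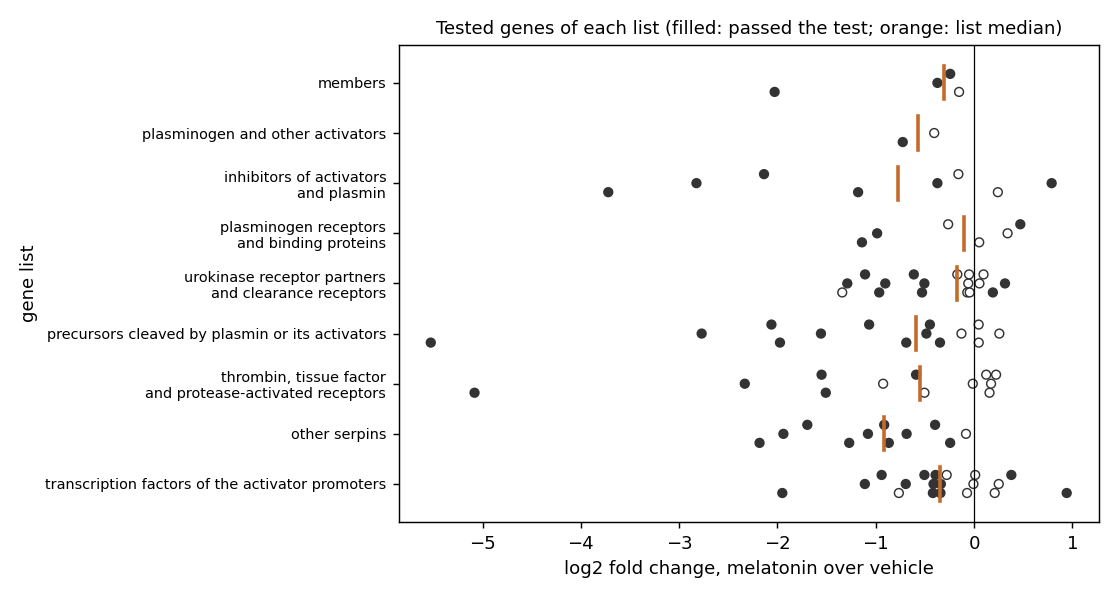
Log2 fold change of melatonin over vehicle (x axis) for each tested gene of the 4 members and the 8 lists (y axis), with filled points for genes that passed and an orange bar at each median. Serpine2 stands both among the members and among the inhibitors. The medians run from -0.91 for other serpins to -0.11 for plasminogen receptors and binding proteins.

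The profile of each of the 4 genes was compared with 16101 tested genes over the 8 libraries, by the root mean square difference of log2 CPM after each gene was centred on its vehicle mean. The genes nearest to Plaur were the cation channel gene Trpm2 (0.09), the heparanase gene Hpse (0.12) and the folate enzyme gene Mthfd1l (0.12). Hpse went from 20.6 ± 1.59 to 4.88 ± 0.783 CPM and Mthfd1l from 81.1 ± 1.71 to 20.4 ± 2.68 CPM. Nearest to Serpine2 were Rpn2 (0.03), Brsk1 (0.03) and Anxa6 (0.03), and nearest to Plat were Xpnpep1 (0.03), M6pr (0.03) and Eif3c (0.03). Plau was nearest to Got1 (0.05), Tmem219 (0.05) and Plpp1 (0.05), which did not pass. With single libraries left out, the edgeR adjusted p of Plpp1 ran from 0.03 to 0.63.

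The markers of FAPs did not move as 1 group. Dcn, a matrix proteoglycan gene, fell by 1.38 ± 0.10 on the log2 scale, and the fibrillar collagen genes Col1a1 and Col3a1 fell by 1.05 ± 0.08 and 1.11 ± 0.10. Gsn, the gelsolin gene, rose by 1.09 ± 0.09. Pdgfra, which marks FAPs in sorting, was at 569 ± 52.1 CPM with vehicle and 465 ± 74 CPM with melatonin and did not pass (edgeR adjusted p = 0.084). Most of the summed level came from Col1a1 and Col3a1. Without them the other 10 markers summed to 3340 to 3420 CPM with vehicle and 3136 to 3670 CPM with melatonin, and the groups overlapped. That sum mixes a rise with falls. It holds Gsn, the only FAP marker that rose (973 ± 59.2 to 2069 ± 210 CPM), and Dcn (910 ± 84.5 to 350.5 ± 42.0 CPM). Of all 12 markers 8 fell, and a sum that also leaves out Gsn was not made. The genes given here from the marker lists, and those left out of a sum, were chosen after their values were seen.

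Cells other than FAPs also make these transcripts. The summed level of 12 macrophage markers was 528 to 800.1 CPM with vehicle and 351 to 649.6 CPM with melatonin, so the groups overlapped. Lyz2, which did not pass, made up most of that sum (444 ± 84.6 and 398 ± 97.6 CPM). Of the 12 macrophage markers, 3 rose and 2 fell, where 18.1% of all tested genes rose and 18.5% fell. Cd14 (57.6 ± 8.91 to 26.3 ± 3.25 CPM) and Csf1r (29.0 ± 4.9 to 17.2 ± 5.3 CPM) fell, each without overlap of the groups. C1qa (2.4 ± 0.84 to 4.7 ± 1.2 CPM), C1qb (6.15 ± 1.78 to 14.5 ± 4.82 CPM) and Mrc1 (1.36 ± 0.126 to 2.72 ± 1.28 CPM) rose. Melatonin replicate 4 had the lowest macrophage sum and the lowest Plaur level. Of 7 neutrophil markers only S100a8 was in the table, at 1.46 ± 0.318 and 0.96 ± 0.258 CPM. The 9 endothelial markers, whose cells are known for the tissue activator, summed to 39.0 to 46.9 CPM with vehicle and 57.1 to 68.5 CPM with melatonin. The 2 that rose were Tek (17.1 ± 1.51 to 35.3 ± 3.61 CPM) and Egfl7 (5.16 ± 0.716 to 10.3 ± 1.09 CPM), and without them the other 7 summed to 16.5 to 22.7 CPM with vehicle and 14.1 to 22.1 CPM with melatonin, with overlap. Vwf fell from 2.48 ± 0.769 to 0.576 ± 0.383 CPM. The defining markers Pecam1 (3.53 ± 0.754 and 4.8 ± 0.886 CPM) and Cdh5 (7.9 ± 1.3 and 8.79 ± 2.09 CPM) did not pass. With library totals alone Pecam1 passed (edgeR adjusted p = 0.025). The 5 satellite cell and myoblast markers in the table summed to 486 to 681 CPM with vehicle and 351 to 428 CPM with melatonin, without overlap. Vcam1 made up most of that sum, and the other 4 summed to 8.98 to 12.6 CPM with vehicle and 8.1 to 24.8 CPM with melatonin, with overlap. The sums of pericyte and tenocyte markers overlapped between the groups. Fmod, which did not pass, made up most of the tenocyte sum (1083 ± 144 and 1070 ± 90.1 CPM). Of 4 tenocyte markers, 1 fell and 0 rose. Schwann cell markers summed to 53.0 to 60.4 CPM with vehicle and 60.3 to 90.7 CPM with melatonin, overlapping only through melatonin replicate 4. Of 5 Schwann cell markers tested, 2 rose and 0 fell. Adipocyte markers, 6 of 7 of which rose, summed to 134 to 139 CPM with vehicle and 738 to 937 CPM with melatonin. The part of FAPs or of these other cells in the levels of the 4 genes was not tested.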

How the data were processed

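Bulk RNA sequencing counts of 8 FAP libraries were used. The authors deposited whole-number counts per Ensembl gene. Per the submitters' processing notes, bedtools 2.26.0, DESeq2 1.12.4, FastQC 0.11.2, HISAT2 2.0, StringTie 1.3.3b and Trimmomatic 0.36 were used, with build mm10. How reads were counted, with which annotation and with what regard to strand, is not stated. Columns prefixed as control were read as vehicle, the only other group. Every gene listed has at least 11 counts over the libraries. Symbols, positions and exon lengths came from GENCODE M21 on GRCm38 (20720 of 20781 IDs matched). Genes were filtered with filterByExpr and TMM-scaled, and tested with edgeR 4.0.16 (robust quasi-likelihood, group as the only term, Benjamini-Hochberg over all 16565 genes tested). Intervals cover 95%. Ratios were tested by exact permutation over libraries. The steps were tested on simulated data. Alternatives used DESeq2 1.42.0, limma 3.58.1 (voom), other scalings and filters, the replicate block and each library left out.

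The members and lists were chosen with earlier results of these data known. Named genes were the members, the 3 smallest p per list, a fixed set of 13 genes and the 3 nearest profiles per member. Some list genes are included in counts without being reported by name.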

Additional observations from a re-analysis of the deposited data

Results flagged for a closer look

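In 7 of the 130 groups of 4 libraries examined among the named genes, 1 library lay far from the other 3 by Dixon's gap test, where chance flags about 5% of groups. None of the 7 was Plau, Plat, Plaur or Serpine2. The macrophage, tenocyte and Schwann cell markers were not among the genes examined. Mmp3 was at 90.1 CPM in melatonin replicate 2 against 50.8 to 52.04 CPM in the other melatonin libraries. Serpina3n was at 492 CPM in melatonin replicate 2 against 365 to 372 CPM. Mmp9 was at 170.7 CPM in vehicle replicate 3 against 149 to 152 CPM in the other vehicle libraries. Serpina3g was at 128 CPM in vehicle replicate 3 against 92.6 to 96.5 CPM. Plpp1, one of the genes nearest to Plau in profile, was at 189 CPM in melatonin replicate 4 against 148 to 153 CPM. F5 was at 0.268 CPM in melatonin replicate 4 against 0.0746 to 0.0945 CPM, and Pdgfra was at 354 CPM in melatonin replicate 4 against 491 to 509 CPM in the other melatonin libraries.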

How the results depend on the processing

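Plaur and Serpine2 kept their direction and call in all 18 alternatives, and Plat in 17. Leaving out 1 library at a time gave -2.06 to -1.96 for Plaur, -0.41 to -0.34 for Serpine2, -0.26 to -0.21 for Plat and -0.22 to -0.09 for Plau. With library totals only, Plat did not pass (-0.085) and Plau changed sign (0.0061), as did the uncalled Mrc2 (0.099), F2r (0.14), Got1 (0.066) and Plpp1 (0.039), and 5100 genes were higher, 69.5% of those called against 49.4%. That scaling also gave 1 higher gene among cleaved precursors and 4 among transcription factors, and upper quartile factors gave 1 precursor. At an adjusted p under 0.01, 1754 genes were higher, with 0 receptor partners and 1 transcription factor. The stricter filter left 3 lower genes in the thrombin list, since fewer genes were tested. Without single libraries, 2403 to 3284 genes were higher and 2671 to 3282 lower, and counts of higher genes ran from 0 to 2 for receptor partners, 0 to 1 for precursors and 1 to 2 for transcription factors. Uncalled values that changed sign when a library was left out were S100a10 (-0.089 to 0.148), Mrc2 (-0.090 to 0.017) and F2r (-0.070 to 0.026). Per kb of the longest coding transcript, vehicle levels were 14.0 for Plaur, 76.0 for Plat and 368 CPM per kb for Serpine2.

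Without vehicle replicate 3 the exact permutation p adjusted over the 6 pairs was 0.0429 for the 3 ratios with Plaur and for Plau against Serpine2, and without melatonin replicate 4 for the 3 ratios with Plaur and for Plat against Serpine2. Over the libraries left out the difference ran from 1.75 to 1.98 for Plau against Plaur, 0.01 to 0.13 for Plau against Plat, 0.17 to 0.27 for Plau against Serpine2, -1.85 to -1.73 for Plaur against Plat, -1.73 to -1.57 for Plaur against Serpine2 and 0.11 to 0.16 for Plat against Serpine2. Same-numbered libraries did not deviate together (correlations of -0.0461 to 0.0354), so the replicate numbers were taken as names. With the replicate block Plaur was at -2.03, Plat at -0.24 (edgeR adjusted p = 0.047), Serpine2 at -0.37 and Plau at -0.15, 2293 genes were higher and 2649 lower, and 0 receptor partners and 1 transcription factor were called higher.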
